A study of Drosophila melanogaster with 3 samples.

Results

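The genes described here are 9 core genes of the Notch pathway in Drosophila melanogaster: the receptor gene N, the ligand genes Dl and Ser, the ubiquitin ligase genes neur and mib1, the glycosyltransferase gene fng, the protease gene kuz, and the nuclear genes Su(H) and H. They were picked as a named list, by a rule that uses no measured value but with earlier results of these data known, and are 9 of 13945 protein-coding genes on the chromosome arms 2L, 2R, 3L, 3R, 4 and X. Binding of the protein CG1647 at these genes was read from peak lists of chromatin immunoprecipitation with sequencing (ChIP-seq). The material was whole embryos aged 0 to 24 h, males and females together, from a transgenic line that carries CG1647 with GFP at its C-terminus, and the tagged protein was precipitated with an antibody to GFP. There were 3 biological replicates of this 1 group, so the comparisons are between genes, lists and replicates and not between conditions. The promoter that drives the fusion is not given in the sources used here, whole embryos mix all embryonic tissues and stages, and a summit does not show in which cells the protein was bound.

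In Notch signalling, a ligand on one cell binds the receptor on its neighbour. The receptor is then cut by proteases outside and within the membrane, and its intracellular part enters the nucleus, where it joins the DNA-binding protein Su(H) and turns on target genes. In the fly embryo the pathway is best known for limiting how many cells of the ectoderm become neural precursors. Without the signal, Su(H) bound to Hairless, the product of H, keeps target genes off.

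CG1647-GFP was found in the retained list at 4 of the 9 genes: N, neur, kuz and Su(H). The retained list is the authors' shorter list of 3123 peaks that passed the irreproducible discovery rate (IDR) threshold. It holds 6 summits at these genes, a summit being the highest point of a peak, counted in the gene or within 1 kb of one of its transcript starts. N and neur had 2 retained summits each, 1 within 1 kb of a start and 1 farther into an intron, and kuz and Su(H) had 1 each at the start. Dl, Ser, mib1, fng and H had none. The 4 of 9 make 44.4% (95% exact Clopper-Pearson interval 13.7 to 78.8), beside 21.3% of all protein-coding genes, a value inside that interval. Within 1 kb of a transcript start the same 4 genes were called, beside 18.7% of all protein-coding genes. Within 500 bp, 3 were called (N, kuz and Su(H); 33.3%, interval 7.49 to 70.1), beside 16.2% of all genes. These intervals cover counting error over genes only. With replicate 1 left out, a retained peak had to overlap one of the best 3123 peaks of replicate 2 and of replicate 3. The genes called at a start were then 2 (N and Su(H)), beside 14.2% of all genes. The neur and kuz promoter peaks were listed in both replicates. They ranked 1822 and 4960 (neur) and 3811 and 2322 (kuz) in replicates 2 and 3, so each was beyond 3123 in one of them. In the 1561 retained peaks of highest signal, only the 2 intronic summits were left, at N and neur (2 of 9, beside 12.2% of all genes), and 0 of the 9 genes were called at a start, beside 10.3%.

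Most of these genes are long, and a long gene has more room for summits. With the 1 kb before the gene included, the 9 genes held 2.50 retained summits per 100 kb, against 3.51 over all protein-coding genes and 1.74 over the 1073 protein-coding genes at least as long as neur (19.1 kb). Among the 6 of the 9 genes that are at least that long (N, Dl, Ser, neur, fng and kuz), 3 had a retained summit in the gene or within 1 kb of a start, beside 44.3% of the 1073 long genes. The same 3 had one within 1 kb of a start, beside 26.1%, and 2 (N and neur) had one in the gene but over 1 kb from its starts, beside 30.6%. Set against genes of like length, the 3 of 6 (exact interval 11.8 to 88.2%) were close to the background of genes with any retained summit.

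**Figure D1:**
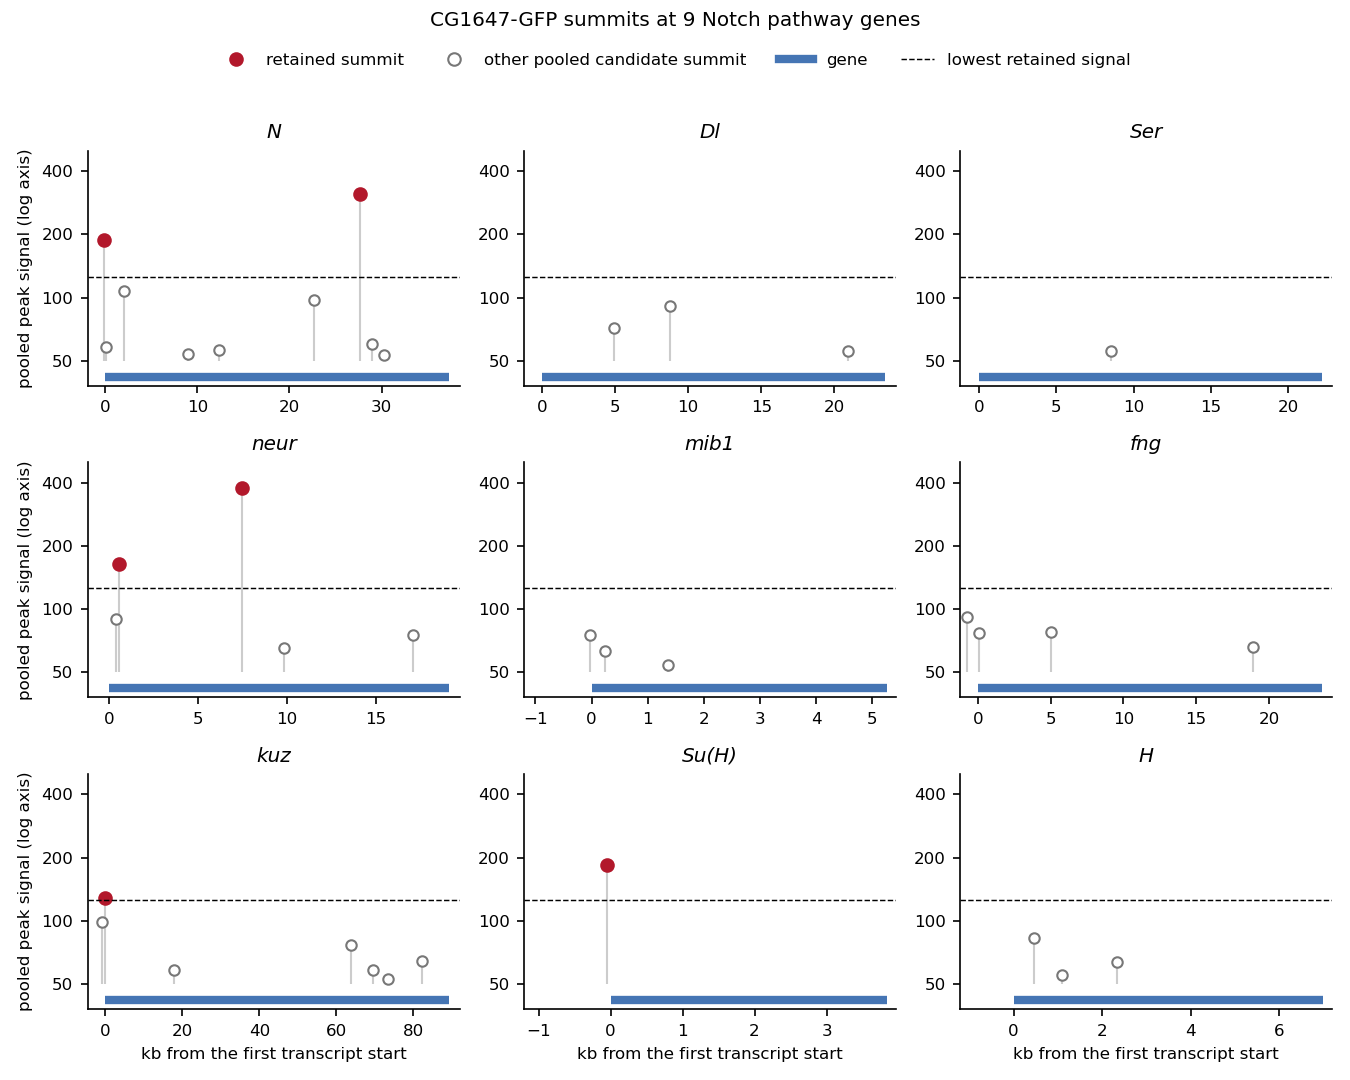
Summits of the pooled candidate list at the 9 genes, 1 panel each. The horizontal axis is the distance in kb from the most upstream transcript start, along the direction of transcription, and the vertical axis is the pooled peak signal on a log axis. Filled red points are the 6 retained summits, open points the other candidates, the blue bar the gene and the dashed line the lowest retained signal, 126. The intronic summits of neur (377) and N (312) stand above every other point, and the panels of Dl, Ser, mib1, fng and H hold open points only.

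The receptor gene N (FBgn0004647, dm6, X:3134870-3172221, plus strand, 37.4 kb) had its stronger summit inside the gene. It lay at 3162496, in intron 5, 27626 bp downstream of the only start of N and 10644 bp from the nearest start of another gene, CG18508. Its pooled signal, the peak caller's own value, was 312, rank 577 of the 3123 retained peaks with rank 1 the highest. In the 3 replicate lists the overlapping peak had signals of 107, 112 and 89.7 and ranks of 410, 821 and 695 (mean 642 ± 211, SD, n = 3). The other summit, at 3134753, was 117 bp upstream of the start, past the 3′ end of kirre and outside every annotated gene body, with a pooled signal of 188 (rank 1582). Its signals were 69.1, 51.2 and 67.7 in replicates 1, 2 and 3, and its ranks 1048, 2939 and 1314 (mean 1767 ± 1024, SD, n = 3). The intronic summit ranked higher in every replicate, and the ranks of these summits did not overlap. No other gene starts near the promoter summit; the nearest other start was that of kirre, 6114 bp away.

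The ubiquitin ligase gene neur, whose product acts on Dl in the signal-sending cell, had the strongest summit of the 9 genes (FBgn0002932, dm6, 3R:9020348-9039471, minus strand, 19.1 kb). That summit, at 9031990, lay in an intron, 1741 bp downstream of the inner of the 2 starts of neur (9033731 and 9039471). Its pooled signal was 377, rank 383 of the retained list. The replicate lists gave signals of 102, 153 and 121 and ranks of 459, 438 and 339 (mean 412 ± 64.1, SD, n = 3), the narrowest spread of the 6 sites. These ranks overlapped those of the intronic summit of N, since 410 in replicate 1 of N lies within them, so the order of these 2 sites was not separated by the replicates. The nearest start of another gene was hyx, 6770 bp away.

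The neur summit near the outer start is shared with a neighbour. It lay at 9038912, 559 bp downstream of the outer start and in intron 1 of neur. It was also in the 5′ UTR of hyx, which runs the opposite way and encodes a subunit of the Paf1 transcription elongation complex, only 152 bp from the hyx start at 9038760. The summit was therefore nearer to hyx than to neur. Its pooled signal was 164 (rank 2006). Signals of 54.3, 70.0 and 35.7 in replicates 1, 2 and 3 gave ranks of 1721, 1822 and 4960 (mean 2834 ± 1842, SD, n = 3). Replicate 3 was the low one, outside the best 3123 of its list. With each summit given only to the protein-coding gene with the nearest start, an alternative chosen after seeing the data, 3 of the 9 genes were called at a start, beside 13.2% of all protein-coding genes.

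The other promoter summits were those of Su(H) and kuz. Su(H) (FBgn0004837, dm6, 2L:15039488-15043334, plus strand, 3.85 kb), the gene of the DNA-binding protein of the pathway, had its summit at 15039438, 50 bp upstream of the start, with a pooled signal of 185 (rank 1618). The replicate lists gave signals of 53.9, 55.1 and 70.9 and ranks of 1752, 2629 and 1190 (mean 1857 ± 725, SD, n = 3), all within the best 3123. The start of CIAPIN1, a gene of iron-sulfur protein assembly on the opposite strand, was 577 bp from this summit. Su(H) had no other candidate summit in any of the lists. kuz (FBgn0259984, dm6, 2L:13550139-13639411, plus strand, 89.3 kb) encodes the metalloprotease that makes the first cut of the activated receptor. Its retained summit, at 13550187, was 48 bp downstream of the start in the 5′ UTR and 859 bp from the start of B4 on the opposite strand. With a pooled signal of 129, rank 3015, it was just inside the end of the retained list. The replicates gave signals of 41.2, 42.7 and 51.4 and ranks of 3038, 3811 and 2322 (mean 3057 ± 745, SD, n = 3), so replicate 2 placed it outside its best 3123.

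Across the 6 sites the −log10 of the q-value in the pooled list was 3.58 at the introns of neur and N and the promoters of N and Su(H), 2.90 at the neur promoter and 1.70 at the kuz promoter. In the order of pooled signal, only the step from the N intron to the N promoter was wider than the spread of the replicate ranks. Each later neighbour in that order, from the N promoter to Su(H), neur and kuz, overlapped the next. The summits in the replicates lay within 49 bp of the retained summit at all 6 sites.

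**Figure D2:**
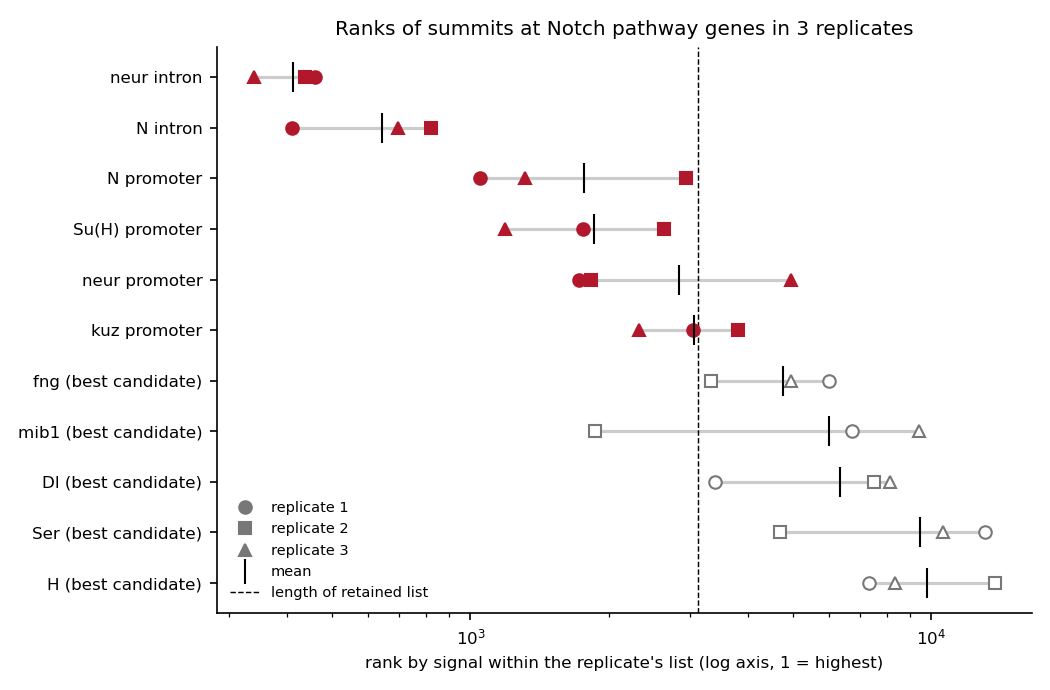
Ranks by signal of the 6 retained sites (filled) and of the best candidate of each of the 5 genes with none (open) in the 3 replicate lists, on a log axis with rank 1 the highest. The open points of a gene are its best summit in each replicate and can lie at different sites. Circles, squares and triangles are replicates 1, 2 and 3, black ticks are means of 3 and the dashed line is the length of the retained list, 3123. The intronic sites of neur and N rank between 339 and 821 in every replicate, and among the open points only mib1 in replicate 2, at 1865, is left of the line.

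The sequences of 4 sites are shown because they hold the strongest signals and the sites with motif matches. Each is 201 bases of the RefSeq copy of release 6, centred on the retained summit and written along the gene. Capitals mark exact matches to the motifs and over-represented words given after the sequences. The windows are chr3R:9031890-9032090 (minus strand) for the neur intron, chrX:3162396-3162596 (plus) for the N intron, chr2L:15039338-15039538 (plus) for the Su(H) promoter and chr3R:9038812-9039012 (minus) for the neur promoter.
neur intron: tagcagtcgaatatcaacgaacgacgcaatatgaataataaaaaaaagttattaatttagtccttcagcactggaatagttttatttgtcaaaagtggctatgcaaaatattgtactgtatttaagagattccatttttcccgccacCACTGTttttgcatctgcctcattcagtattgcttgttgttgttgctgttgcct
N intron: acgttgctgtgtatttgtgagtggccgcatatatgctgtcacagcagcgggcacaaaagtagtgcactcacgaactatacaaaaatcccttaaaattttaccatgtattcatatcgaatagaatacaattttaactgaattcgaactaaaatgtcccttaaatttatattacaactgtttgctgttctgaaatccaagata
Su(H) promoter: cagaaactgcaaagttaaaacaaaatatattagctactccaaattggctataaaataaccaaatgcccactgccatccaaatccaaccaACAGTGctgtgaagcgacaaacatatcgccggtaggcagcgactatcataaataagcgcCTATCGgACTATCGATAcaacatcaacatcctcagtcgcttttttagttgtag
neur promoter: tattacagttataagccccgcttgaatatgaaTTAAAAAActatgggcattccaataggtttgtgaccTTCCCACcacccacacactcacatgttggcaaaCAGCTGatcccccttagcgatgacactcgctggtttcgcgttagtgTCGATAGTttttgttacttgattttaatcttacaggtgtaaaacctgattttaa

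Motifs were searched as exact letters on both strands. Of 7 motifs, matches were found at the promoters of Su(H) and neur and at none of the other 4 sites in these windows. The Su(H) promoter held the DNA replication-related element TATCGATA, the palindrome bound by Dref, starting 57 bases downstream of the summit. It is in 4.90% of all retained summit windows and in 7.53% of windows of the same length around the starts of 13695 protein-coding genes. The neur promoter held GTGGGAA, the core of the site that Su(H) itself binds, on the opposite strand 32 bases before the summit, printed as TTCCCAC; 1.95% of retained windows and 2.20% of promoter windows hold it. It also held the E-box CAGCTG, starting 1 base after the summit (11.2% of retained windows and 13.7% of promoter windows). The core promoter motif 1 core GGTCACACT (2.37% and 5.08%), GAGAG (24.0% and 22.9%), the Zelda site CAGGTAG (0.929% and 1.07%) and the CTCF core AGGTGGCG (1.38% and 0.402%) were in none of the 6 windows. None of the 7 motifs contains another. A match is a string of letters in the window and was not tested as a site.

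The 8-base words most over-represented at the other 3117 retained summits, against windows 500 bp away, were each in 3.43 to 9.59% of those summits, so few matches could be seen at 6 sites. Of the 10 leading words, ATCGATAG, which overlaps TATCGATA, was at the Su(H) promoter. It is in 5.10% of the other retained summits, 0.674% of the windows 500 bp away and 6.99% of promoter windows. ACTATCGA (3.43%, 0.481% and 3.73%) was at the promoters of Su(H) and neur, and TTAAAAAA (9.59%, 3.82% and 6.32%) at those of neur and kuz. The remaining 6 words (CAACACTG, CACTGAGA, CACAGTGG, CACTGTGC, ATTTTAAA and ATCGATAA) were at 0 of the 6 sites. Among 6-base words, a length added after seeing the data, the leading one was ACACTG, at 21.1% of the other retained summits, 6.96% of the windows 500 bp away and 14.7% of promoter windows. It was at 0 of the 6 sites. ACAGTG (20.8%, 9.30% and 9.70%) was in the neur intron, 47 bases after the summit and printed as CACTGT, and at the Su(H) promoter. CGATAG (13.1%, 4.27% and 15.8%) was at the promoters of Su(H) and neur. Of the 6-base words, only those with at least 3 letters G or C are in capitals. The intron of N, the second strongest site, held none of the 7 motifs and none of the 10 8-base words in this window. Over its whole peak the N intron held GTGGGAA, which is in 4.71% of all retained peaks. Its window held 4 of the 10 leading 6-base words, given with their shares of the other retained summits, the windows 500 bp away and promoter windows. They were TTAAAA (45.8%, 25.5% and 32.3%), ATTTTA (41.2%, 23.9% and 31.5%), ATTTAA (40.5%, 23.5% and 29.0%) and TATCGA (17.0%, 6.87% and 22.1%). The windows of the N intron and the neur intron had 34.8% G and C, against 52.7% at the N promoter, 48.3% at kuz and 40.3% at both Su(H) and the neur promoter. The median was 37.3% over all retained windows and 41.3% over promoter windows.

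The 5 genes without a retained summit had weaker candidates. The pooled candidate list, made as input for the reproducibility step, holds 19204 peaks and includes background, and the retained list is exactly its 3123 peaks of highest signal. It held 36 summits at the 9 genes, at least 1 at each gene (9 of 9, beside 59.4% of all protein-coding genes). Within 1 kb of a start the pooled list had candidates at 7 of the 9, beside 52.9% of all genes. The exceptions were the ligand genes Dl and Ser. Of the 36 candidates, 21 were found in all 3 replicate lists (58.3%), 11 in 2 and 4 in 1, against 50.9% found in all 3 over the whole pooled list. Of the 28 that overlapped no retained peak, 13 were found in all 3 (46.4%), against 39.9% of 15633 such candidates. In their own gene, 16 of these 28 lay in introns, 7 in coding sequence, 2 in 5′ UTRs and 3 outside the gene.

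Neither ligand gene had a pooled candidate within 1 kb of a start. Dl (FBgn0000463, dm6, 3R:19302731-19326217, minus strand, 23.5 kb; named Delta in the annotation used) encodes the main ligand of neural precursor selection. It had 3 pooled candidates, of which the strongest, in an intron 8749 bp downstream of the start, had a signal of 91.2. The best summit of Dl in each replicate ranked 3386, 7513 and 8125 (mean 6341 ± 2578, SD, n = 3). In replicate 2 that summit was at another site, 4955 bp downstream of the start. The nearest retained summit to the start of Dl was 77.0 kb away, 107 bp from the start of Ino80, and had a signal of 499. Ser (FBgn0004197, dm6, 3R:27172090-27194267, minus strand, 22.2 kb), the gene of the other ligand, had 1 pooled candidate, in an intron 8281 bp downstream of its nearest start, with a signal of 55.5. The best summit of Ser in each replicate ranked 13055, 4692 and 10601 (mean 9449 ± 4299, SD, n = 3). These were different sites, 2154, 7632 and 8263 bp downstream of the nearest start, and only the last was at the pooled candidate. Replicate 3 alone listed a summit at a start of Ser, at -28 bp (negative is upstream), with a signal of 22.3 and rank 14933. The nearest retained summit was 14.9 kb from its start.

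The remaining ubiquitin ligase gene, mib1, which acts on both ligands, was ranked differently by replicate 2 (FBgn0263601, dm6, 3L:16006552-16011812, minus strand, 5.26 kb). Its strongest pooled candidate was 31 bp upstream of a start with a signal of 75.6. The best summits of mib1 ranked 6726, 1865 and 9394 in replicates 1, 2 and 3 (mean 5995 ± 3817, SD, n = 3). Only replicate 2 had one in its best 3123, with a signal of 68.9 there. These summits lay at different positions, at 237, -31 and -258 bp from the nearest start (negative is upstream). The last was measured from the inner start of mib1, at 16010309. fng (FBgn0011591, dm6, 3L:20925891-20949512, minus strand, 23.6 kb) encodes the enzyme that extends sugars on the receptor and changes which ligand it answers. Its candidates reached 92.2 at 716 bp upstream of the start and 77.3 at 86 bp downstream. The best summits of fng ranked 5983, 3331 and 4970 (mean 4761 ± 1338, SD, n = 3), none of them in the best 3123. They were different sites in replicates 1, 2 and 3, at 5029 bp downstream, 716 bp upstream and 77 bp downstream of the start. A retained summit of signal 146 lay 2.52 kb beyond the 3′ end of fng, 26.1 kb from its start. H (FBgn0001169, dm6, 3R:20621938-20628915, plus strand, 6.98 kb) had its strongest candidate in the 5′ UTR, 460 bp downstream of the start, with a signal of 82.6. The best summit of H in each replicate ranked 7316, 13733 and 8337 (mean 9795 ± 3448, SD, n = 3). In replicate 2 that summit was at another site, 2332 bp downstream of the start. The nearest retained summit was 27.5 kb away. Of the 2 nuclear genes, Su(H) thus had a retained promoter summit and H only a candidate there.

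The 3 unretained candidates of highest signal, below the lowest retained signal of 126, lay at genes that also had a retained summit. N had candidates of 108, in an intron 2005 bp from its start, and 97.0, in an intron 22663 bp from it. A candidate of 98.5 upstream of kuz lay 5 bp from the start of B4, nearer to that gene than to kuz. The other candidates of N between 53.1 and 60.3 and those of kuz between 52.7 and 76.8 lay along the gene bodies or beside the N promoter peak. At neur, the candidate of 90.1 overlapped the retained promoter peak, and those of 75.7 and 65.6 lay in coding sequence and an intron.

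In the replicate lists, each brought to its 3123 peaks of highest signal, 4 of the 9 genes had a summit in each of the 3 replicates. They were N, neur, kuz and Su(H) in replicate 1 (beside 20.0% of all genes), N, neur, mib1 and Su(H) in replicate 2 (beside 21.4%), and N, neur, kuz and Su(H) in replicate 3 (beside 21.4%). N, neur and Su(H) were found in all 3 (3 of 9, exact interval 7.49 to 70.1%), beside 14.1% of all genes. In the full replicate lists 9 of 9 had a summit in every replicate, beside 49.8%, a share not matched for gene length. In replicate 1 the best summit of kuz, at rank 1592, was the peak that overlaps the candidate beside the start of B4. The replicate lists are not independent of the retained list, whose signal comes from their pooled alignments.

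The promoter signals of the 9 genes lay inside the range of other genes. Of the 7379 protein-coding genes with a pooled candidate within 1 kb of a start, N was in place 1449 from the top (signal 188), Su(H) in place 1478 (185), neur in place 1801 (164) and kuz in place 2551 (129). fng was in place 3805 (92.2), H in place 4374 (82.6) and mib1 in place 4874 (75.6). The median was 129 over these 7 genes and 94.4 over the 7379. The highest signal of any retained peak in the genome was 2899. The genes whose promoter summits had replicate ranks most like those of the N promoter were mts and Rack1, which share a summit (2L, 7827280; ranks 1035, 2799 and 1249), and RpS10b (ranks 999, 3311 and 1172). Likeness was measured as the Euclidean distance of the log10 ranks over 3 replicates, which was 0.031 for the shared summit and 0.075 for RpS10b.

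**Figure D3:**
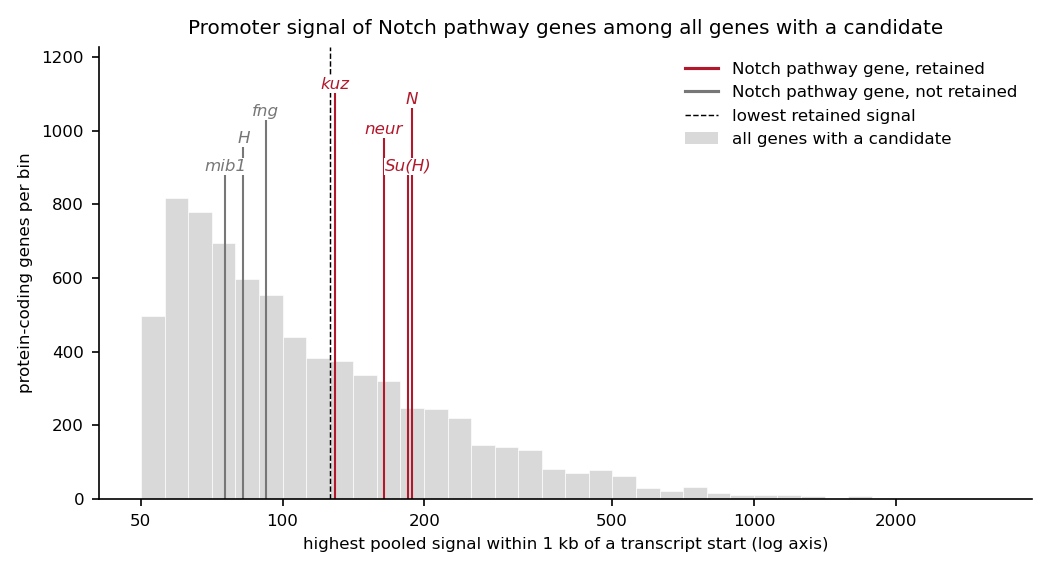
Highest pooled signal within 1 kb of a transcript start (horizontal, log axis) for the 7379 protein-coding genes with a candidate there; grey bars count genes per bin. Vertical lines mark the 7 of the 9 genes with such a candidate, red where the summit was retained and grey where not, and the dashed line is the lowest retained signal, 126. N and Su(H) almost coincide at 188 and 185, and no line falls in the upper tail.

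Binding was also counted at 43 other genes of the pathway, listed by role. A retained summit within 1 kb of a start was found at 14 of them (32.6%, exact interval 19.1 to 48.5), beside the 18.7% of all protein-coding genes given above. The count was 9 without replicate 1 (beside 14.2% of all genes) and 9 without replicate 2 (beside 12.8%). For 7 of the 14, another protein-coding gene also starts within 1 kb of the summit. The roles hold 2 to 8 genes each, too few to rank them by share. Among nuclear cofactors 4 of 6 were called: gro, the Groucho corepressor (signal 564), nej, the CBP acetyltransferase (311), CtBP, another corepressor (233), and mam, the coactivator of the Su(H) complex (183). The nej and CtBP summits lay 654 and 869 bp from their nearest starts, so neither was within 500 bp. The mam summit was nearer to the start of RN-tre, 55 bp away, than to that of mam, 441 bp away. Among genes of receptor and ligand traffic and turnover 4 of 8 were called: numb, an inhibitor of Notch inherited by one daughter cell (274), Su(dx) (179) and Nedd4 (140), both ubiquitin ligase genes, and Nak, a kinase gene of endocytosis (136). Among proteases 2 of 8 were called. Fur1, of the furin family that processes precursor proteins, had a signal of 773 (rank 74, 198 bp from its start and 234 bp from that of Vps33B). The other was aph-1, a subunit of the gamma-secretase that makes the last cut (306). It had 2 retained summits within 1 kb of its start, and the one of 306 was nearer to the start of Snx21.

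The glycosylation gene rumi, whose product adds glucose to the receptor, had a signal of 408 at a summit 128 bp from its start and 176 bp from that of Usp12-46, and O-fut1 had no candidate. Of the 3 other genes of ligand endocytosis only aux, the auxilin gene, was called, at 139 near an inner start, with a stronger summit of 254 at 2470 bp downstream of its nearest start. Among the targets, the genes of the E(spl) complex and dpn, 2 of 8 were called, E(spl)m3-HLH (210) and E(spl)mbeta-HLH (139), both repressor genes switched on by Notch. Of the 8 Bearded family genes, whose products inhibit neur, 0 were called. A count of 0 was taken to allow up to 3, an approximation and not the exact interval used above. That allows a share of up to 37.5%, beside 18.7% of all protein-coding genes. A pooled candidate at a start was found at 6 of the 8, beside 52.9% of all protein-coding genes. The gro summit ranked 142, 144 and 175 and the Fur1 summit 81, 69 and 92 in replicates 1, 2 and 3, above every promoter summit of the 9 genes. The ranks of other sites were less even, with Nak at 14618, 3545 and 2585 and E(spl)m3-HLH at 4874, 951 and 1234. Many genes of these lists are neighbours in the E(spl) and Bearded clusters and are not independent of each other.

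**Figure D4:**
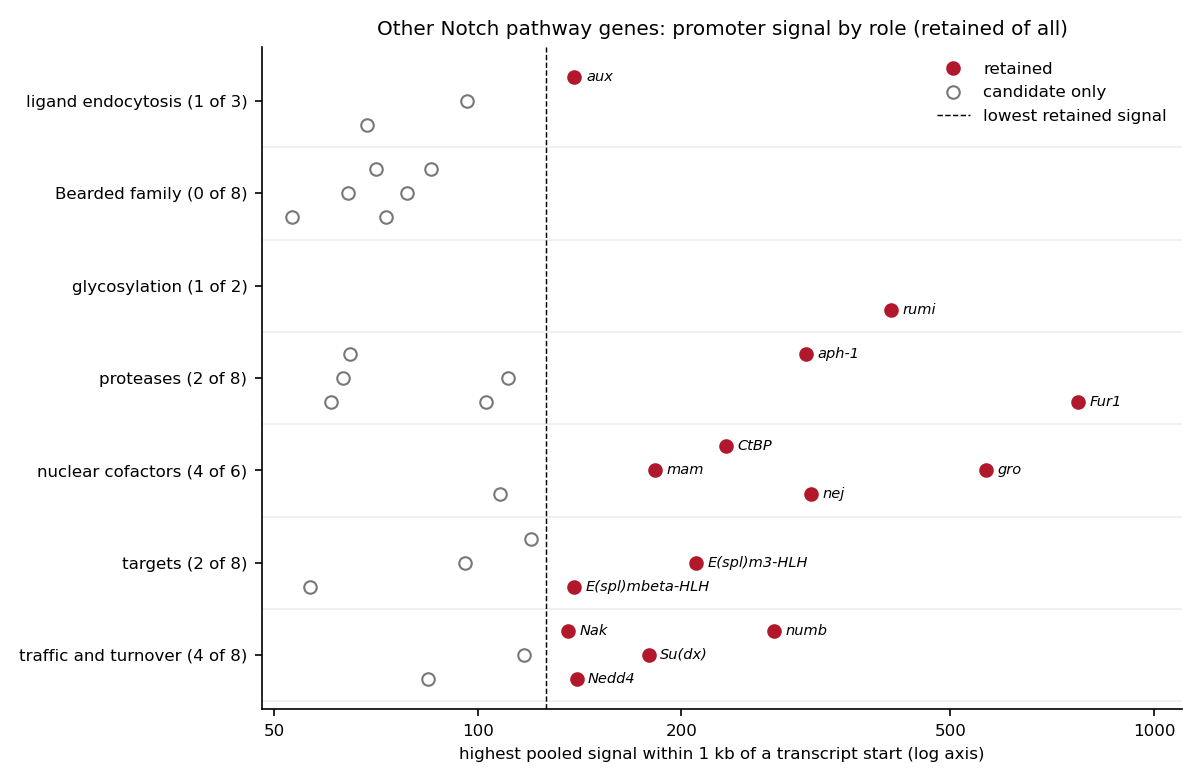
Highest pooled signal within 1 kb of a transcript start (horizontal, log axis) for the other 43 pathway genes, by role, with the number retained of the number in the list. Filled red points are retained and named, open points are candidates only, and the 10 genes with no candidate there are not drawn; height within a row only separates points. Fur1 (773), gro (564) and rumi (408) lie farthest right, and the row of Bearded genes has no filled point.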

How the data were processed

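ChIP-seq peaks of CG1647-GFP were taken from 3 biological replicates of whole embryos, with fragments of 200 to 800 bp. Per the labels and file headers, the authors deposited on dm6 a candidate list per replicate (30000, 17977 and 30000 peaks), a list on the pooled alignments (19204) and a list that passed the IDR threshold (3123), each against a control alignment. The signal column is the deposited value of the authors' peak caller and was used only within a list. The −log10 of the q-value and the summit offset were also deposited. The aligner, the caller and its settings, and the threshold were not given in the sources used here, read depth is unknown, and the dm3 lists were not used.

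Summits were assigned to Ensembl release 115 genes (assembly release 6) in the gene or within 1 kb of any transcript start. Of 52 listed pathway symbols all were found, 3 under a newer symbol. A replicate peak matched at an overlap of 1 bp or more, the highest signal being taken. Motif windows reached 100 bp on either side of a summit. Counts are descriptions with no test, since there is 1 group. Named genes were all members, genes starting within 1 kb of their retained summits, other pathway genes with a retained promoter summit, and the 3 genes most like the N promoter in replicate rank. Neighbours beyond 1 kb and genes nearest to other summits were named after their values were seen. The members and lists were chosen with earlier results of these data known. The assignment was tested on simulated peaks. Python 3.11.15, pandas 2.3.3, numpy 2.4.6, scipy 1.17.1 and matplotlib 3.10.9 were used.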

Additional observations from a re-analysis of the deposited data

How the results depend on the processing

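Of 47 alternative values, 37 stayed within 1.5 times the reported value (or 1 SD for ranks). Some of the 37 had little room to move. The midpoint of the peak gave the reported counts, since the retained summits at these genes lie at the peak centres. Matching replicate summits within 200 bp gave the reported mean ranks at all 6 sites, since those summits lay within 49 bp. In the 1561 retained peaks of highest signal, 2 members (N and neur) with 2 summits were called (beside 12.2% of all protein-coding genes), and 0 members and 8 other pathway genes at a start (beside 10.3%). With each replicate left out in turn, the retained list was kept, and its peaks had to overlap one of the best 3123 peaks of both other replicates. The counts at a start could thus only fall. Members called at a start numbered 2 to 3 in place of 4. Other pathway genes called at a start numbered 9 to 10 in place of 14. The share of all protein-coding genes called at a start also fell from 18.7%. It was 14.2% without replicate 1, 12.8% without replicate 2 and 12.9% without replicate 3. The 2 members without replicate 1 were N and Su(H). Leaving out replicate 1 or 2 gave 9 other pathway genes and leaving out replicate 3 gave 10. In the full replicate lists 9 members had a summit in every replicate, in place of 3 (beside 49.8% of all genes in place of 14.1%). These shares were not matched for gene length. Sites with a motif numbered 1 within 50 bp of the summit and 5 over whole peaks (all but the neur intron), in place of 2. No paired analysis was possible because there is 1 group. Read counts were not used here, 9 genes give wide intervals, and the candidate lists hold background.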
